A study of Aedes albopictus with 4 samples.

Results

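The genes described here carry the product name synaptic vesicle glycoprotein 2 (SV2) in the deposited annotation of Aedes albopictus, the Asian tiger mosquito. A case-insensitive search of the product names found 12 such genes among 25320 in the table. The description centres on 2 of them, LOC109424813 and LOC109414631, both named synaptic vesicle glycoprotein 2B-like, and sets them beside the other 10 copies. The pair was chosen by its normalized counts, which were far higher in diquat larvae than in controls, so its difference is described and carries no test. The other 10 genes came in by name alone.

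RNA came from whole larvae in the fourth instar at 72 h. The diquat group (2 libraries) was exposed to diquat, a bipyridyl herbicide that passes electrons to oxygen, at a dose of 1/5 of the LC50 (the concentration lethal to the median animal). The control group (2 libraries) was untreated. No strain, sex or pooling of animals is given in the labels used here. The design text speaks of duplicates, so the spread between these libraries may be technical. The limma p-values and standard errors combine each gene's own spread between libraries with that of other genes of similar mean.

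SV2 proteins are membrane proteins of the major facilitator superfamily (MFS), a large family of carriers that move small molecules across membranes. In vertebrates SV2A, SV2B and SV2C sit in synaptic vesicles, SV2A binds the antiepileptic drug levetiracetam, and SV2 proteins serve as receptors for botulinum toxin. By sequence they resemble organic cation transporters and the SV2-related protein SVOP. The mosquito names rest on similarity to vertebrate proteins, and the table gives no function for any of the 12 genes. Whether these copies act in neurons was not measured here.

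Values are the authors' normalized counts, that is, reads per gene scaled by a single factor in each library. They are not corrected for gene length, so levels of different genes are not ranked against each other. The diquat libraries were the deeper ones, with 45243090 and 48383964 counted reads, against 34502559 and 39242657 in controls. Larval cuticle protein genes, 35 by name, mark larval epidermis and were present in all libraries. They summed to 42183 and 41599 normalized counts in diquat larvae, against 78553 and 78106 in controls. Of 31 tested, 23 fell and 1 rose, with a median log2 difference of -1.22. Neuron marker genes, 8 by name with none at 0, summed to 21049 and 21434 normalized counts in diquat larvae, against 27267 and 27895.5 in controls, and 7 of the 8 fell. Malpighian tubule markers summed to 272858 and 272054 normalized counts in diquat larvae, against 220645 and 220137 in controls, with 23 rising and 4 falling of 34 tested. Midgut markers summed to 524464 and 520533 normalized counts in diquat larvae, against 551666 and 547406 in controls, although 54 of 116 tested rose and 24 fell, with a median log2 difference of 0.14. Muscle markers summed to 681935 and 680142 in diquat larvae, against 531195 and 528443 in controls, with 15 rising and 17 falling of 54 tested. Fat body markers summed to 982563 and 986367, against 1105320 and 1110250, with 4 rising and 4 falling of 16 tested. Over all genes tested, 26.7% rose and 22% fell. In whole larvae, a change in the number of cells of a type and a change in RNA per cell cannot be told apart.

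LOC109424813 had 816 and 900.4 normalized counts in diquat larvae, against 55.0 and 70.9 in controls. Both diquat values lay far above both control values. The group means were 858 ± 59.4 normalized counts in diquat larvae and 63.0 ± 11.3 in controls (SD, n = 2 each), a 13.6-fold ratio. Behind these values stood 891 and 1055 reads in the diquat libraries and 46 and 68 reads in the control libraries. Counting error alone gave 95% exact Poisson intervals of 764 to 872 and 847 to 956 normalized counts in diquat larvae, against 40.3 to 73.4 and 55.1 to 89.9 in controls. The difference on the scale of log2(value + 1), where the added 1 makes changes of scarce transcripts look smaller, was 3.76 ± 0.15 (limma SE).

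LOC109414631 followed the same pattern at lower counts. It had 438 and 451 normalized counts in diquat larvae, against 35.9 and 51.1 in controls, with no overlap between the groups. The means were 444 ± 8.95 and 43.5 ± 10.8 normalized counts (SD, n = 2 each, diquat and control), a 10.2-fold ratio. The reads behind them numbered 478 and 528 in diquat libraries and 30 and 49 in control libraries. The difference was 3.34 ± 0.20 on the log2(value + 1) scale (limma SE). Among the 17992 genes that averaged 10 or more normalized counts, LOC109424813 stood 8th and LOC109414631 15th by the size of the rise. These places describe how the pair was picked.

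**Figure D1:**
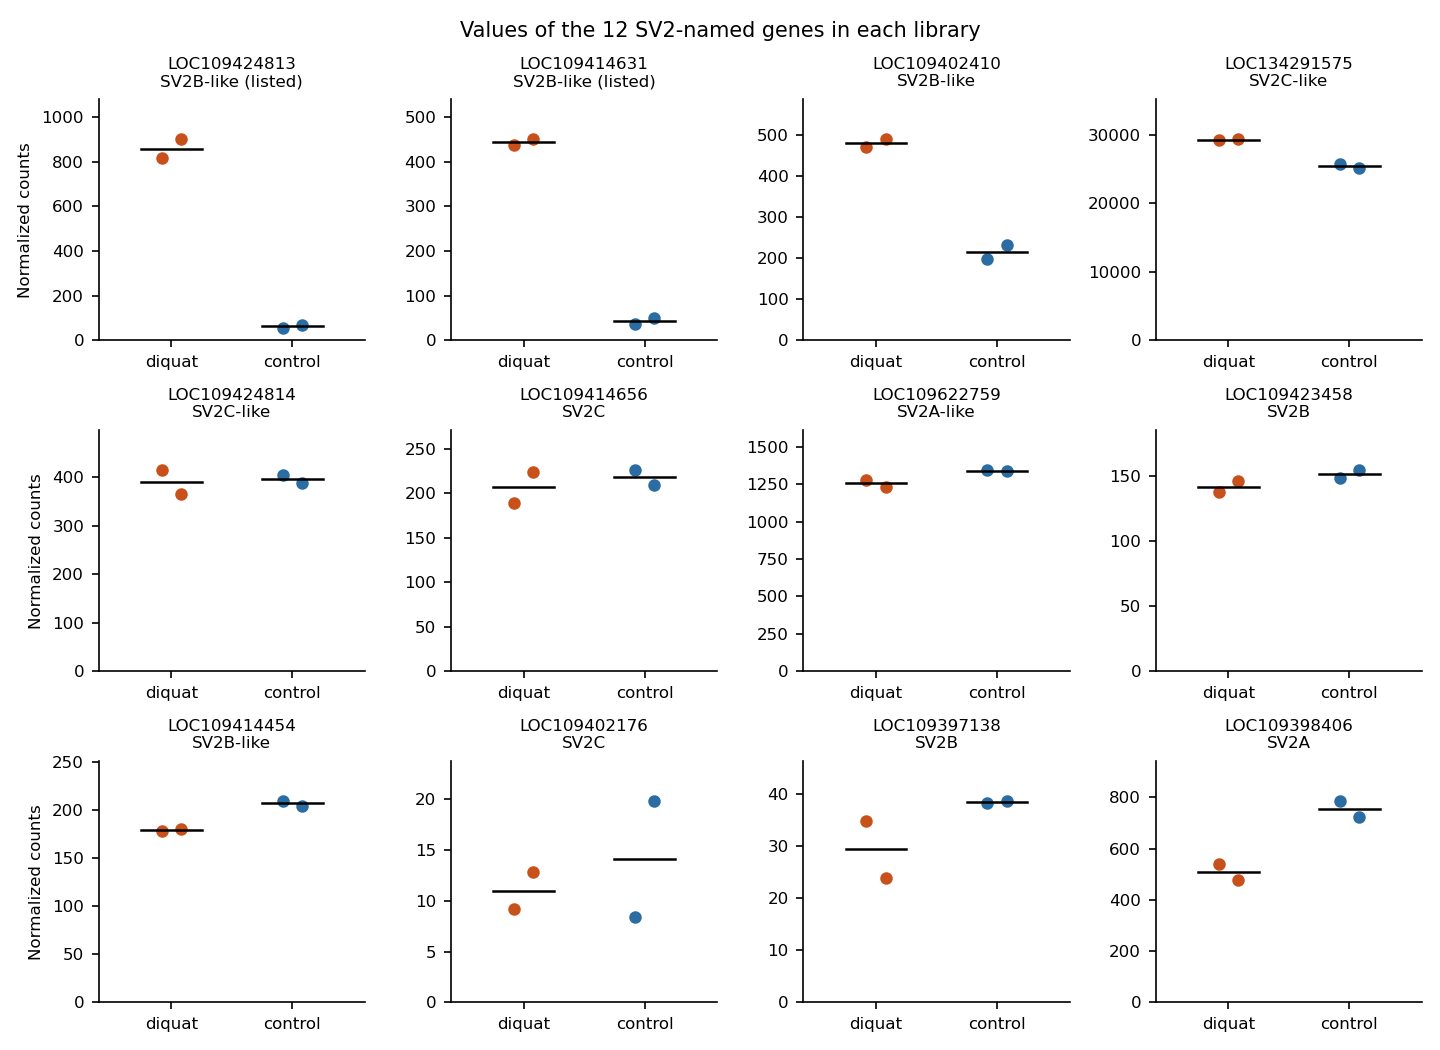
Normalized counts (vertical axes, each from 0) of the 12 SV2-named genes in each library, with diquat left and control right; points are single libraries and black lines group means, and panels run from the largest rise to the largest fall. LOC109424813 reached 816 and 900.4 in diquat larvae against 55.0 and 70.9 in controls, while 7 of the other 10 copies did not pass the test.

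The values of the pair differed in the spread between replicates. For LOC109424813 the replicates were 0.14 apart on the log2(value + 1) scale in diquat larvae and 0.36 apart in controls. For LOC109414631 the gaps were 0.04 in diquat larvae and 0.50 in controls, where only 30 and 49 reads were counted. The control level was therefore the less precise end of both differences. In both genes control replicate 2 was the higher of the controls.

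The ratio of LOC109424813 to LOC109414631 within a library, which no scaling between libraries can alter, was 1.86 and 2.00 in diquat larvae, against 1.53 and 1.39 in controls. The diquat ratios were thus above the control ratios. The control ratios rest on the fewest reads, and with this pair picked for its rise the gap was not tested.

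The remaining copies had smaller differences, which the choice of the pair by its rise made likely. All 12 SV2-named genes passed the filter on low values, an average of 10 or more normalized counts over the libraries. Of the other 10 copies, 2 rose, 1 fell and 7 did not pass an adjusted p of 0.05 (limma with Benjamini-Hochberg adjustment over 17992 genes). Among all 17992 genes tested, 48.8% passed, 26.7% higher and 22% lower with diquat. The shares among the other copies were 20% higher and 10% lower. Setting the pair aside by its rise lowered the share that rose, so it is not read against the background. The median log2 difference of the 10 copies was -0.09, beside -0.00 over all genes tested.

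LOC109402410, another 2B-like gene, rose with 472 and 489.9 normalized counts in diquat larvae, against 199 and 233 in controls. The groups did not overlap, and this was the largest difference among the 10 copies taken by name. Its means were 481 ± 12.7 in diquat larvae and 216 ± 24.1 in controls (SD, n = 2 each), a 2.23-fold ratio, with a log2 difference of 1.16 ± 0.12 (SE; limma adjusted p = 1.22e-08). It stood at place 325 of 17992 by the size of the rise. The 95% interval of its log2 difference was 0.90 to 1.41.

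LOC134291575, named 2C-like, rose by a small amount. It had 29193 and 29376 normalized counts in diquat larvae, against 25742 and 25215 in controls, without overlap. The log2 difference was 0.20 ± 0.02 (SE; limma adjusted p = 3.5e-10), a 1.15-fold ratio. With a constant variance prior in place of the mean trend its adjusted p was 0.0689. It gave 86.6% and 86.7% of the summed normalized counts of the 12 genes in diquat larvae, and 88.2% and 88.0% in controls, so any sum over all copies mostly shows this gene.

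LOC109398406, named 2A, was the copy that fell. It had 541 and 475 normalized counts in diquat larvae, against 785 and 722 in controls, and the groups did not overlap. Its means were 508 ± 46.1 and 753 ± 44.3 normalized counts (SD, n = 2 each, diquat and control), with a log2 difference of -0.57 ± 0.09 (SE; limma adjusted p = 8.96e-06). The neuron markers above, 7 of 8 lower in diquat larvae with a median log2 difference of -0.28, moved the same way. Their part in this fall was not tested.

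The other 7 copies did not pass the test. LOC109622759, named 2A-like, had 1278 and 1232 normalized counts in diquat larvae, against 1343 and 1337 in controls (log2 difference -0.09, 95% interval -0.22 to 0.03). LOC109414454, named 2B-like, had 179 and 180.1 in diquat larvae, against 209 and 204.5 in controls (log2 difference -0.20, interval -0.52 to 0.11). In both genes the diquat libraries lay below the controls, a pattern without overlap that 73% of all tested genes showed in one direction or the other. LOC109423458, named 2B, had 137 and 146 in diquat larvae, against 148 and 154 in controls (log2 difference -0.09, interval -0.46 to 0.27). In the AalbF5 annotation it lies inside the neuropeptide F gene LOC109432151, which had 1024 and 956 normalized counts in diquat larvae, against 1194 and 1217 in controls, and reads of the pair were not separated here.

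LOC109424814, named 2C-like, had 415 and 366 normalized counts in diquat larvae, against 405 and 388 in controls, with overlapping groups (log2 difference -0.03, 95% interval -0.25 to 0.20). LOC109414656, named 2C, had 189 and 224 in diquat larvae, against 226 and 209.7 in controls, again with overlap (log2 difference -0.08, interval -0.39 to 0.23). These intervals leave room for small changes in either direction. The scarcest copies were LOC109397138, named 2B, with 23.9 to 34.8 normalized counts in diquat larvae against 38.3 to 38.6 in controls, and LOC109402176, named 2C, with 9.16 to 12.8 against 8.37 to 19.8. At 7 to 38 reads per library, differences of these 2 genes were hardly measurable (intervals -1.16 to 0.36 and -1.47 to 0.99).

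**Figure D2:**
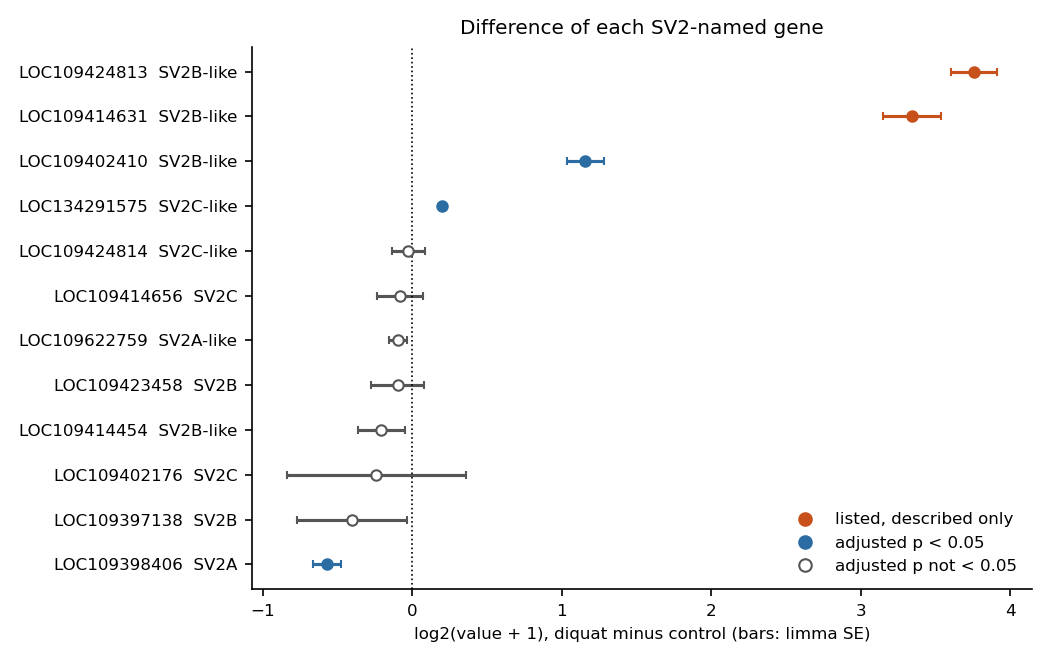
Difference between diquat and control on the log2(value + 1) scale for each SV2-named gene, with bars of 1 limma standard error (n = 2 libraries each). The listed pair stands at 3.76 and 3.34, LOC109402410 at 1.16, and the other 9 copies between -0.57 and 0.20.

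The name classes were mixed. All 3 of the SV2-named genes that were at least 2-fold higher with diquat were named 2B-like. The listed pair among them was picked for its rise, so only LOC109402410 came in by name alone. LOC109414454, also named 2B-like, stood at -0.20, and the 6 genes with a 2B name ran from -0.40 to 3.76 in log2 difference. The 4 genes with a 2C name ran from -0.24 to 0.20, and the 2 genes with a 2A name were at -0.57 and -0.09.

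Over all 12 copies, the pair summed to 1254 and 1351 of 33700 and 33880 normalized counts in diquat larvae. In controls it summed to 90.9 and 122.1 of 29190 and 28640. These sums and the shares below restate the rise by which the pair was picked. Leaving out LOC134291575, the other 11 genes summed to 4509 and 4502 normalized counts in diquat larvae, against 3453 and 3429 in controls. The pair made up 27.8% and 30.0% of that sum in diquat larvae, against 2.63% and 3.56% in controls. The 9 copies left after removing the pair as well summed to 3255 and 3151 normalized counts in diquat larvae, against 3362 and 3306 in controls.

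Both listed genes belong to a run of SV2-named neighbours. In the AalbF5 annotation, used only for gene order and overlap because no source names the authors' build, 6 genes in a row hold 4 of the 12 copies. The order is LOC109414656, LOC109414631, the undescribed LOC134284037, protein serrate (LOC109424815), LOC109424814 and LOC109424813. Each listed gene thus has another SV2-named copy, with a 2C name, as its direct neighbour. Neither listed gene overlaps another gene in that annotation.

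Within the run the copies alternated. LOC109424813 was 1.97 and 2.46 times its neighbour LOC109424814 in diquat larvae, against 0.136 and 0.183 times in controls. LOC109414631 was 2.32 and 2.01 times its neighbour LOC109414656 in diquat larvae, against 0.159 and 0.244 times in controls. These are ratios of normalized counts inside a library, not of levels per length, and they describe the same difference as above with the scaling removed. Serrate, a Notch ligand in flies and singled out here after its values were seen, had 1257 and 1240 normalized counts in diquat larvae, against 1300.1 and 1195 in controls (log2 difference 0.00 ± 0.06, SE).

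Of the 20 genes flanking the run, 10 on each side, 15 were tested. Among them 5 rose and 1 fell, and their log2 differences ran from -0.89 to 0.95 with a median of -0.03. Over all genes tested, 26.7% rose and 22% fell. Cubilin (LOC109424809), an uptake receptor and the next gene after LOC109424813, had 498 and 590 normalized counts in diquat larvae, against 652 and 620 in controls, and fell (log2 difference -0.23 ± 0.10, SE; limma adjusted p = 0.0493). The largest rise among the flanking genes was in a serine protease easter-like gene (LOC115264218), with 3420 and 3177 normalized counts in diquat larvae against 1606 and 1822 in controls. These flanking genes were also named after their values were seen. Apart from the pair, no tested gene of this stretch exceeded a log2 difference of 0.95.

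**Figure D3:**
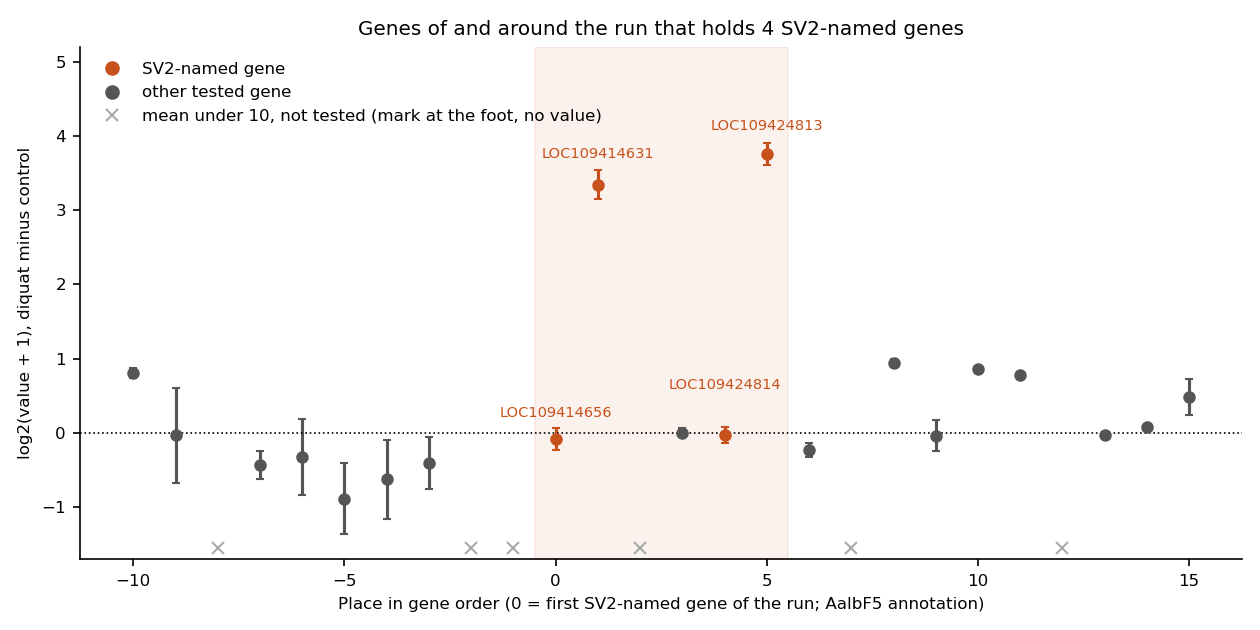
Difference between diquat and control on the log2(value + 1) scale (vertical axis, bars of 1 limma standard error) by place in gene order (horizontal axis), with the run of 6 genes shaded and untested genes marked at the foot. The listed pair stands at 3.34 and 3.76, while their SV2-named neighbours lie at -0.08 and -0.03 and the tested flanking genes between -0.89 and 0.95.

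LOC109402410, one of the copies that rose, also had a related neighbour. LOC109423540, a putative transporter named SVOPL after an SV2-related protein, is the gene before LOC109402410. It had 306 and 342 normalized counts in diquat larvae, against 221 and 169 in controls, and rose (log2 difference 0.74 ± 0.15, SE; limma adjusted p = 0.000149). It is 1 of 4 genes with an SVOP or SV2-related name, a list added after the data were seen. The other 3, all named synaptic vesicle 2-related protein, did not pass, with log2 differences of 0.06 to 0.13, and all 3 overlap another gene.

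The genes whose profile over the 4 libraries was most like that of LOC109424813 included its partner. Likeness was the Euclidean distance between log2(value + 1) profiles centred on their mean over 4 libraries, among 9873 other genes with a described product and a mean of at least 50. LOC109414631 was the nearest of all, at a distance of 0.43, a closeness that the choice of both genes by their rise made likely. The next were phenoloxidase-activating factor 2-like (LOC109416724, 0.52), vanin-like protein 1 (LOC109421937, 0.66), CLIP domain-containing serine protease B8-like (LOC134286581, 0.71) and trypsin-1 (LOC109430115, 0.73).

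The search from LOC109414631 named 3 of these genes again. Its nearest profiles were LOC134286581 at 0.32, LOC109421937 at 0.39, LOC109424813 at 0.43, LOC109430115 at 0.46 and sodium/potassium-transporting ATPase subunit beta-1 (LOC115256865) at 0.47, a subunit of the sodium pump. The last, with 753 and 809 normalized counts in diquat larvae and 95.7 and 102 in controls, lies inside an undescribed noncoding gene, LOC134287936. That gene had 12537 and 12354 in diquat larvae against 7639 and 7740 in controls, and reads of these genes were not separated here. Among SV2-named genes LOC109402410 came next, at 2.60 from LOC109424813 and 2.20 from LOC109414631, and the remaining copies lay between 3.17 and 4.35. With 4 libraries in 2 groups, this distance mostly measures how alike the differences between groups are.

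The family's relatives in the MFS moved in both directions. Of 21 genes in the organic ion transporter list, named for carriers of charged organic molecules, all were tested, 9 rose and 6 fell, none by 2-fold, with a median log2 difference of 0.14. These are 42.9% and 28.6% of the list, beside 26.7% and 22% of all genes tested, with no test of the gap. Of all 17992 genes tested, 420 rose and 507 fell at least 2-fold. The most significant members were all organic cation transporter genes that rose. LOC109425509 had 9126 and 8992 normalized counts in diquat larvae, against 5803 and 5651 in controls (log2 difference 0.66). LOC115268973 had 13355 and 13024 normalized counts in diquat larvae, against 9450.1 and 9158 in controls (0.50). LOC109432293 (0.59) and LOC109401272 (0.35) followed, all past the adjusted p of 0.05 in limma. Part of LOC109425509 overlaps LOC109417046, a gene with 28.9% of its value. Leaving out the organic anion transporters, which are a separate family, 5 rose and 4 fell of 13, a narrowing chosen after the data were seen.

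Sugar and other MFS carriers numbered 103 by name, of which 98 were tested, 28 rose and 21 fell, with a median log2 difference of 0.01. The shares, 28.6% and 21.4%, were close to the 26.7% and 22% of all genes tested. The members of smallest p were a putative inorganic phosphate cotransporter (LOC109425830, log2 difference 0.61), glucose transporter type 1 (LOC109428702, -0.47), a sugar transporter SWEET1-like gene (LOC115261548, 1.39) and monocarboxylate transporter 9 (LOC109420256, 0.73). In this list 4 genes rose at least 2-fold and none fell 2-fold, beside 420 and 507 of all 17992 genes tested. One of these 4 list members is the facilitated trehalose transporter LOC109433130, singled out after its values were seen. It had 162 and 129 normalized counts in diquat larvae, against 9.57 and 2.09 in controls. Its log2 difference of 4.67 exceeded that of either listed gene. The name pattern also caught families outside the MFS, SWEET and sodium-coupled carriers among them. Without these, 23 rose and 15 fell of 77, a narrowing also chosen after the data were seen.

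Genes of the synaptic vesicle machinery fell more often than they rose, while many did not pass the test. Of 31 by name, 30 were tested, 4 rose, 15 fell and 11 did not pass, with a median log2 difference of -0.23 beside -0.00 over all genes. Among the 15, LOC109398945 is named sialin and is also counted in the sugar and other MFS carrier list. The share that fell was 50%, against 22% of all tested genes, with no test of that gap. Complexin (LOC109430375), a clamp of the vesicle fusion complex, had 4735 and 4601 normalized counts in diquat larvae, against 6180.1 and 6063 in controls, and fell by 0.39 on the log2 scale. Unc-13 homolog B (LOC109431126), a priming factor, fell by 0.37. Rab3 GTPase-activating protein non-catalytic subunit (LOC109418270) rose by 0.49 and synaptobrevin (LOC109398320) by 0.32, but the synaptobrevin gene lies inside LOC109419701, which had 114% of its value.

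With genes of broader membrane traffic left out of that list, 15 fell and 1 rose of 21, beside 3963 and 4809 of 17992 over all genes. This narrowing was chosen after the data were seen and removed no gene that fell, so it could only raise the share that fell. In the whole list 8 fell and 6 rose of 30 when each library's trend on genomic span was removed. Over all genes, 3296 fell and 4487 rose of 17992 in that setting. With a constant variance prior 7 fell and 1 rose of 30, beside 2739 and 3260 of 17992 over all genes. Without genes that overlap another gene 8 fell and 2 rose of 19, beside 1935 and 3027 of 10471, with no test of these gaps. The neuron markers, which fell in 7 of 8 and share synaptotagmin 1 with this list, moved the same way, and their part in it was not tested.

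**Figure D4:**
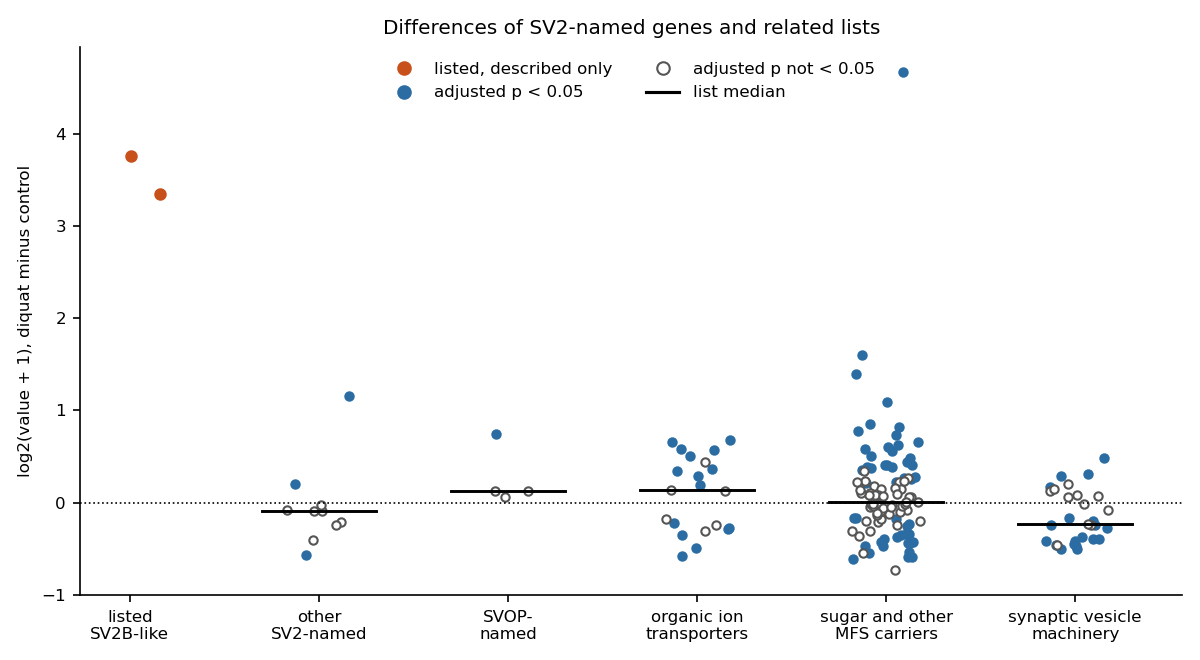
Difference between diquat and control on the log2(value + 1) scale for every tested gene of the listed pair, the other SV2-named copies and 4 related name lists; each point is a gene, blue points passed an adjusted p of 0.05 and black lines are list medians. The pair at 3.76 and 3.34 stands above all points but 1, and the synaptic list has a median of -0.23. That point is the trehalose transporter at 4.67 (SE 0.47), whose control values lie near the floor.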

How the data were processed

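Libraries of whole-larva RNA (2 diquat, 2 control) were prepared with a NEBNext Ultra II kit, per the labels' protocols. Tools in the submitters' processing notes are STAR 2.7.10a, fastp 0.12.4, bcl2fastq and DRAGEN, listed without their roles. The read counter, genome build, strandedness and normalization method are not stated there. The authors deposited a normalized signal per gene. In each library 100% of values divided evenly by its smallest nonzero value (tolerance 1e-06), so whole reads were recovered by division. How reads that fit several similar copies were assigned is not stated, so values of near-identical copies would be uncertain.

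Genes with a mean of at least 10 were fitted with limma 3.58.1 in R 4.3.3 on log2(value + 1) with a mean trend, two-sided, with Benjamini-Hochberg adjustment at 0.05. Alternatives were pseudocounts, filters, scalings, a constant variance prior, the replicate block, each library left out, and edgeR 4.0.16 and DESeq2 1.42.0 on recovered reads. Removal of the trend on genomic span (loess, span 0.3), removal of overlapping genes and narrower lists were chosen after seeing the data. All 25320 identifiers matched the AalbF5 table, used for gene order, overlap and span. The fit was checked on simulated data. The members and the lists were chosen with earlier results of these data known. Named were all SV2-named genes, in each list the 4 genes of smallest p among those averaging 50 or more, and the 5 nearest profiles per listed gene; genes named after their values were seen are marked as such. Protein and promoter sequences were not used here. Figures used Python 3.11.15 and matplotlib 3.10.9.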

Additional observations from a re-analysis of the deposited data

How the results depend on the processing

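The log2 differences of LOC109424813 and LOC109414631 lay between 3.54 and 3.94 and between 3.09 and 3.59 over 16 alternatives each. The value of 3.54 came with the trend on genomic span removed. Some alternatives change only the variance model, the replicate block or the genes tested, and could not move these differences. With each library left out in turn the differences of the pair ranged from 3.58 to 3.94 and from 3.09 to 3.59. LOC109402410 and LOC109398406 kept their calls in all 16 alternatives (adjusted p from 7.86e-19 to 0.0181 and from 6.26e-09 to 0.0344). LOC134291575 kept its call except under a constant variance prior, which left 1 copy rising in place of 2 (adjusted p from 1.19e-32 to 0.0689 over its alternatives). Uncalled copies changed sign, with the call still absent, when single libraries were left out: LOC109402176 ranged from -0.81 to 0.34, LOC109414656 from -0.21 to 0.044 and LOC109424814 from -0.12 to 0.065, the last positive without control replicate 1 (0.0063) and without diquat replicate 2. LOC109622759 stood at 0.12 with the span trend removed.

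Without overlapping genes, which leaves 10471 genes to test, 3027 rose and 1935 fell. Of 17992 genes, 3260 rose and 2739 fell with a constant variance prior, and 4487 rose and 3296 fell with the span trend removed. Of 21 organic ion transporters, 3 fell with a constant variance prior and 3 with the span trend removed. Without overlapping genes 3 fell and 4 rose of the 10 left, and in the narrower list 5 rose of 13. Of 30 synaptic genes, 7 fell and 1 rose with a constant variance prior, and 8 fell and 6 rose with the span trend removed. Without overlapping genes 8 fell and 2 rose of the 19 left, and in the narrower list 1 rose of 21. Counts from these shortened lists are not comparable with those of the full lists. The causes were not tested. Median-ratio scaling of the recovered reads gave the same counts as the deposited scaling. It also returned the same log2 difference for every SV2-named copy, so it was no separate check.

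The labels number the replicates 1 and 2 in both groups without saying that a number was shared, and the replicate differences of the groups correlated at r = 0.01 across 17992 genes. With the replicate block 4935 genes rose and 4121 fell, and no call of an SV2-named copy changed. The 30 to 68 reads per control library limit the precision of the pair's control level.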
